A study of Mus musculus with 15 samples.

Results

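A set of 109 promoters carried a nucleosome-depleted region (NDR) just upstream of the transcription start site (TSS) in 2 pooled libraries of dendritic cells (DCs) but not in 2 pooled libraries of 3T3 fibroblasts. Members were chosen by the occupancy values of the 4 pooled libraries, among the 13559 promoters with a coverage score above 100, of 25881 annotated. For each promoter the mean nucleosome occupancy from −150 to 0 bp of the TSS was divided by that of its upstream flank, from −1000 to −500 bp. A member had an NDR-to-flank ratio below 0.5 in both pooled DC libraries and above 0.9 in both pooled fibroblast libraries. The 109 members were 0.804% of the high-coverage promoters and 2.83% of the 3848 with a ratio below 0.5 in both DC libraries. They lay at 105 start sites more than 100 bp apart, 92 of them were annotated to coding and 17 to non-coding transcripts, and they carried 105 gene names.

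Occupancy was measured by ChIP-MNase. Chromatin carrying H3K4me1, a mark around active and inducible promoters, was first pulled down as large pieces, and micrococcal nuclease then cut it down to the DNA held by nucleosomes. The pooled H3K4me1 libraries were DC_ns (no treatment), DC_st (1 h of LPS at 100 ng/ml), fibro_ns (no treatment) and fibro_st (1 h of TNF-α at 5 ng/ml), each pooled by the authors from 2 replicates and therefore without a replicate error. The 11 libraries that the selection did not use were all from 3T3 fibroblasts. They comprised 8 H3K4me1 libraries, 2 each of control and of Brg1/Brm-depleted cells (BAF-knockdown) without and with 1 h of TNF-α at 5 ng/ml, plus 3 libraries made after the same TNF-α treatment with antibodies to phosphorylated RNA polymerase II (pol-II), 2 against the S7P form and 1 against S5P. The DCs were differentiated in culture from progenitor lines of mouse bone marrow, and 3T3 is an established fibroblast line. The knockdown used 1 stably expressed shRNA against a sequence shared by both mRNAs. No library of this kind from a second DC preparation was analysed here, so only the fibroblast side of the pattern could be looked up in libraries the selection did not use.

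Nucleosomes are octamers of histones with DNA wrapped around them, and a stretch without one upstream of the TSS leaves the DNA open to transcription factors and the transcription machinery. Active promoters, above all those in CpG islands, usually carry such a stretch, followed by a well-placed nucleosome downstream of the TSS. DCs sample their surroundings through lectins, immunoglobulin-like receptors and intracellular sensors and present antigen to T-cells. PU.1, an ETS-family factor, drives much of the myeloid programme and binds purine-rich DNA with a GGAA core.

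Of the 109 members, 13 were in lists of genes set for these cell-types, and all 13 belonged to myeloid receptor, signalling or inflammasome lists. They were 7 of 71 high-coverage promoters of DC and myeloid surface markers (Cd33, Cd86, Clec4n, Clec7a, Lilrb4a, Ptprc and Siglec1), 5 of 62 for immune receptor and kinase signalling (Dock2, Fyb, Lcp1, Sla and Tyrobp) and 1 of 32 for pattern recognition (Nlrp3). None was among 31 promoters of myeloid transcription factors, 44 of cytokines and chemokines, 50 of interferon-stimulated genes, 29 of lysosomal genes, 24 of fibroblast matrix genes, 22 of genes of other blood cell-types or 11 of ubiquitous genes. Since members were 0.804% of high-coverage promoters, a count of 0 in lists of this size is at the background. The 150 bases before the TSS of 11 of these members are shown because they are the DNA whose occupancy the selection compared. They are from mm9, 5′ to 3′ on the strand of the gene, and capitals mark matches to any of the 9 motifs given further on.
Clec7a, chr6:129422796-129422945, minus strand: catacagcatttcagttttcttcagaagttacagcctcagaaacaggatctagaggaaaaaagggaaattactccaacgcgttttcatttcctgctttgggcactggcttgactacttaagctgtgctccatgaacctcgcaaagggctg
Cd33, chr7:50788542-50788691, minus strand: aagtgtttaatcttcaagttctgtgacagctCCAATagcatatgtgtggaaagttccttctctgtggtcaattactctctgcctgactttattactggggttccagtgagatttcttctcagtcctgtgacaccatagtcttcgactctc
Siglec1, chr2:130912502-130912651, minus strand: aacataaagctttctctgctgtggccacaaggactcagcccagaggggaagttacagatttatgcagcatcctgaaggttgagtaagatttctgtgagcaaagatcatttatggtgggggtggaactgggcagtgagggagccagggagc
Lilrb4a, chr10:51210632-51210781, plus strand: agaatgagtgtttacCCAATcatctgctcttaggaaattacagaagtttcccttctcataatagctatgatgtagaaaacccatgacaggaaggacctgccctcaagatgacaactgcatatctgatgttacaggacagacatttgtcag
Ptprc, chr1:140071883-140072032, minus strand: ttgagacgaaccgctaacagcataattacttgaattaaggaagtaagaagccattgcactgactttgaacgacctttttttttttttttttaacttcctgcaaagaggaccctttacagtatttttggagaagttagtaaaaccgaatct
Cd86, chr16:36666164-36666313, minus strand: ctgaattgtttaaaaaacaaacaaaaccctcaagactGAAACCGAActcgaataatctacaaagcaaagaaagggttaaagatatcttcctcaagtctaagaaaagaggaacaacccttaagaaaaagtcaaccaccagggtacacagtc
Fyb, chr15:6529722-6529871, plus strand: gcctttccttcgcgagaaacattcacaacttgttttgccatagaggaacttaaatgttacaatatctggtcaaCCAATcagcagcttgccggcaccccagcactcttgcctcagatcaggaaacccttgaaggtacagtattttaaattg
Sla, chr15:66644156-66644305, minus strand: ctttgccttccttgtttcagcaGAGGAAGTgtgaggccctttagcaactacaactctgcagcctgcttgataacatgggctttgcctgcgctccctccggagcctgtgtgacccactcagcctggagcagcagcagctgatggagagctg
Dock2, chr11:34597326-34597475, minus strand: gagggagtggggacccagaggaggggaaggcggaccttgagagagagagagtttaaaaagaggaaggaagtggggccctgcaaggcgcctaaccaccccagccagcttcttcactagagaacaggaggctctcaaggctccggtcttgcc
Lcp1, chr14:75530781-75530930, plus strand: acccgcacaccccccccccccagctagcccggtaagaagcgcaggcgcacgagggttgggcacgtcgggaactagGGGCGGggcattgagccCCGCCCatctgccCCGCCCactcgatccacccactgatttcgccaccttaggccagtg
Nlrp3, chr11:59356039-59356188, plus strand: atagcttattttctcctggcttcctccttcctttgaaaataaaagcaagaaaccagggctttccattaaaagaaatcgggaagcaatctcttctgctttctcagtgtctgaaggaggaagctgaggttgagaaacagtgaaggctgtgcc
Within these 11 windows the PU.1 letters GAGGAAGT, read on either strand, began 128 bp before the TSS of Sla. The window of Lcp1 held 3 matches to the SP letters GGGCGG and that of Cd86 held the only match to the interferon-response letters GAAANNGAA. No motif of the 9 was found in the windows of Clec7a, Siglec1, Ptprc, Dock2 or Nlrp3, which says only that these exact letters are not there.

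The averaged profile of the members showed where the nucleosomes lay in the pooled libraries. With each library's mean set to 1, occupancy in DC_ns fell to 0.143 at −75 bp and reached 1.75 at 135 bp. The same positions carry the NDR and the first downstream nucleosome over all high-coverage promoters, whose profile in DC_ns had its minimum of 0.664 at −45 bp and its peak of 1.32 at 125 bp. In the pooled fibroblast libraries the members had their highest value inside the region that was empty in DCs, 1.85 at −45 bp in fibro_ns and 1.92 at −35 bp in fibro_st. The dip and the upstream peak were fixed by the selection and are given as a description.

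**Figure D1:**
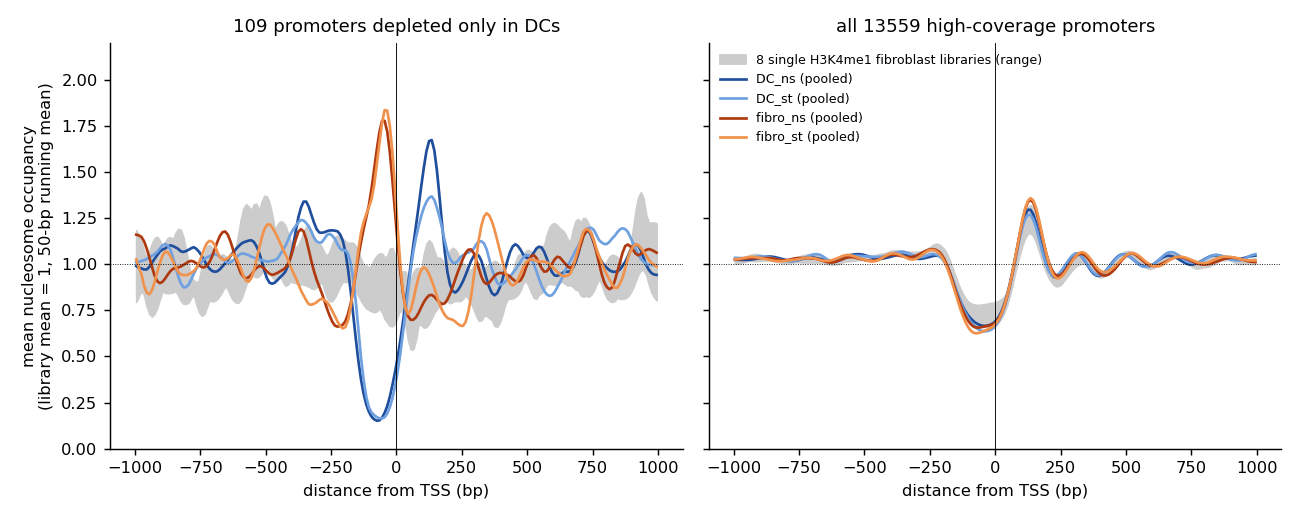
Mean occupancy by distance from the TSS (bp), with each library's mean set to 1 and a 50-bp running mean, for the 109 members (left) and all 13559 high-coverage promoters (right). Lines are the 4 pooled libraries and the grey band spans the 8 single H3K4me1 fibroblast libraries. The DC lines dip and the pooled fibroblast lines peak upstream of the TSS, whereas the grey band stays between them there.

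Over the members, the median ratio was 0.276 in DC_ns, 0.267 in DC_st, 1.29 in fibro_ns and 1.30 in fibro_st. The pooled occupancy of the NDR was exactly 0 in at least 1 DC library for 36 members and in both for 10. The gap between the lower fibroblast and the higher DC ratio ran from 0.433 to 2.99, with a median of 0.796. Just inside the DC threshold were Hdhd2 (0.498), Dnajc15 (0.498) and Dennd1c (0.497), by their higher DC ratio, and just outside were Rgs1 (0.502), Adra1a (0.503) and Camk2a (0.505). Just inside the fibroblast threshold were Maged2 (0.901), Sprr2a2 (0.902) and Kcne3 (0.907), by their lower fibroblast ratio, and just outside were Uqcc3 (0.899), a second start site of Sprr2a2 (0.895) and Mmp1a (0.892).

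Some members lay in DNA that occurs more than once in the genome, where reads cannot be assigned to 1 copy, and their values are uncertain. In 16 members more than 50% of the 32-base words of the NDR or flank window had another exact copy in mm9, which was 14.7% of members against 5.63% of high-coverage promoters. They were 5 promoters of a Mir467/Mir669 cluster on chromosome 2, 5 of the Pira/Lilra receptor cluster on chromosome 7, the neighbouring heat-shock genes Hspa1a and Hspa1b, and Lilrb4a, Zmym5, Sprr2a2 and Olfr10. Their median ratio was 2.14 in fibro_ns and 1.83 in fibro_st, but it was 0 in each of the other 11 fibroblast libraries. At Hspa1a the ratio was 1.45 and 1.57 in the pooled fibroblast libraries and 0 in all 11 others. At Hspa1b it was 1.22 and 1.29, against at most 0.18 in the others. These 16 promoters also had a median coverage score of 699, compared with 187 for the 93 other members, and results are given below with and without them.

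In the 11 libraries that the selection did not use, the NDR of the members was occupied more often than that of all high-coverage promoters. In each of these libraries 26 to 43 members had a ratio below 0.5. These were 26% to 43% of the members with a defined ratio, against 34.75% to 52.34% of high-coverage promoters. The median ratio of the members lay between 0.818 and 0.949 over the 8 single H3K4me1 libraries. Over all high-coverage promoters it lay between 0.598 and 0.736, over the 2378 promoters depleted in both cell-types between 0.0281 and 0.429, and over the 1046 depleted in neither between 0.983 and 1.07. Without the 16 members in repeated DNA the range was 0.835 to 1.02. A ratio was defined in all 11 libraries for 89 members and in none of them for 3 (Sla, Sprr2a2 and AL772216.1), whose flank was at 0 in these libraries. In the single H3K4me1 libraries 63.5% to 78.1% of the bins of high-coverage promoters were filled, against 82.0% to 90.2% in the pooled ones. Of the members' own bins 60.6% to 69.6% were filled in the single H3K4me1 libraries. The part of this sparseness in the members' values was not tested.

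**Figure D2:**
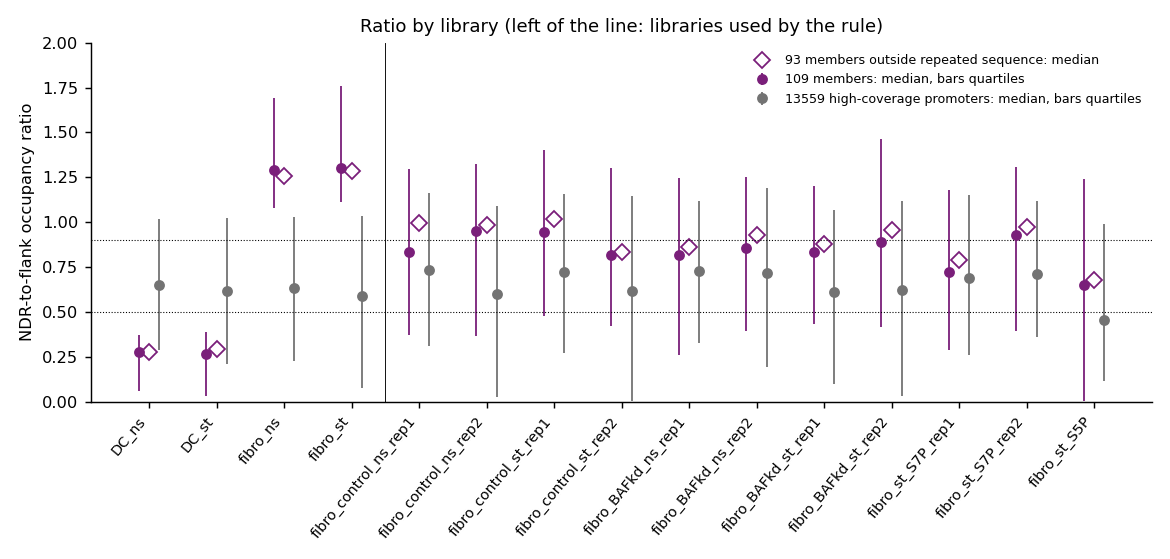
NDR-to-flank ratio in each of the 15 libraries, as medians with bars for the quartiles over promoters, for the 109 members and all 13559 high-coverage promoters, with open diamonds for the 93 members outside repeated DNA. Left of the line are the libraries that made the selection, where the quartile bars separate in fibro_ns and fibro_st but overlap in DC_ns and DC_st, and to the right of it they overlap in every library while the members' median is the higher one.

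The share of members above 0.9 was larger than the share of all high-coverage promoters in each of the 11 libraries, by margins that differed between libraries. In control fibroblasts without TNF-α it was 49.5% (52 of 105) in replicate 1 and 54% (54 of 100) in replicate 2, against a background of 39.5% and 34.1%. After TNF-α it was 52% and 43.3%, against 39.2% and 35.6%. In BAF-knockdown fibroblasts it was 41.9% and 47.6% without TNF-α, against 38.1% and 39.3%, and 42.6% and 47.5% with it, against 33.4% and 35.1%. In the pol-II libraries it was 41.2% and 51.9% for S7P, against 37.7% and 36.5%, and 36% for S5P, against 28.9%. The smallest margins, in replicate 1 of S7P and of the untreated BAF-knockdown, left the members near the background. Without members in repeated DNA the share ran from 39.3% to 58.7%, against 28.9% to 39.8% for high-coverage promoters outside it. The 107 promoters with the opposite pattern were depleted in the pooled fibroblasts and occupied in the DCs. Their share above 0.9 ran from 23.6% to 46.7% over the 11 libraries. In replicate 1 of S7P it exceeded that of the members (46.7% against 41.2%). It was lower in the other libraries, narrowly so in replicate 2 of untreated BAF-knockdown cells (46.2% against 47.6%). The median member was above 0.9 in 5 of the 11 libraries, and the median high-coverage promoter in 4.

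No member was above 0.9 in all 11 libraries. A ratio above 0.9 in 8 or more of them was found for 18 members (16.5%, against 11.5% of high-coverage promoters), all of them outside repeated DNA. A ratio below 0.5 in 8 or more of them was found for 9 members (8.26%, against 17.5%), of which 6 lay in repeated DNA.

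**Figure D3:**
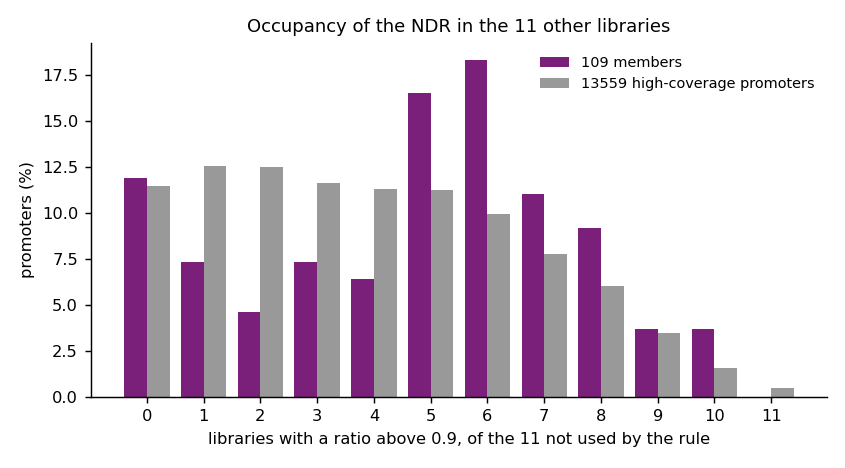
Share of promoters (%) by the number of the 11 libraries in which their ratio was above 0.9, for the 109 members and all 13559 high-coverage promoters. Members peak at 5 and 6 libraries (16.5% and 18.3%), whereas the share of all promoters declines from 12.6% at 1 library to 0.457% at 11.

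The members whose occupied NDR recurred most in the unused fibroblast libraries were Fyb, Gm9920, Pced1b and Stam, each above 0.9 in 10 of 11. Fyb, an adaptor that links receptor signals to integrins in blood cells, had ratios of 0.473 and 0.304 in DC_ns and DC_st, and of 1.96 and 1.09 in fibro_ns and fibro_st. In the 8 single H3K4me1 libraries Fyb ran from 0.834 through a median of 1.38 to 1.72, and in the pol-II libraries it was 1.26 and 1.87 for S7P and 1.6 for S5P. All 11 values of Fyb were thus above both DC values. Stam, which encodes an endosomal sorting adaptor, had DC ratios of 0 and 0.201 and single H3K4me1 ratios from 0.814 to 1.95 with a median of 1.48. Its 4 control libraries lay close together, at 1.75, 1.83, 1.93 and 1.95.

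Nlrp3, the sensor of the best-known inflammasome, and Nlrp1a, a related sensor, were each above 0.9 in 9 of 11. Nlrp3 had DC ratios of 0.219 and 0.122 and pooled fibroblast ratios of 0.957 and 0.936. Its single H3K4me1 libraries ran from 0.815 through 1.01 to 1.71, and the only library below 0.5 was replicate 1 of S7P, at 0.133. Nlrp1a was at 0.378 and 0.305 in DCs and at 1.87 and 2.52 in the pooled fibroblasts, and its 4 control libraries were at 3.20, 2.80, 1.27 and 2.99. In S5P Nlrp1a was at 0. Also among the 10 members above 0.9 most often were Rbm47 and Crem (8 of 11 each, none below 0.5), and Vps26a and Krtap2-4 (9 of 11 each).

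Among the surface receptors, the lectins Clec7a and Clec4n (Dectin-1 and Dectin-2, which bind fungal glucans and mannans) were each above 0.9 in 6 of 11. Clec7a had ratios of 0.0672 and 0.188 in DCs and of 2.28 and 1.39 in the pooled fibroblasts. Its single H3K4me1 libraries ran from 0.484 through 1.02 to 1.48, all above the DC values, while S5P was at 0. Clec4n had 0.120 and 0.480 in DCs, 2.24 and 0.913 in the pooled fibroblasts and 1.84, 1.69, 1.43 and 1.06 in the 4 control libraries, with its lowest single value, 0.214, in a BAF-knockdown library and a value of 0 in S5P. Ptprc, the CD45 phosphatase of blood cells, was at 0 and 0.323 in DCs, at 1.74 and 1.46 in the pooled fibroblasts, and at 0.963, 1.73, 2.02 and 2.36 in the 4 control libraries. Its ratio was 0.264 in replicate 1 of S7P and 0 in S5P, both within the range of its DC values. These values are for 1 of 2 annotated promoters of Ptprc. The other had a ratio of 0.680 in fibro_ns and was no member. Cd86, a co-stimulatory ligand for T-cells, was at 0.377 and 0.226 in DCs and at 1.81 and 1.12 in the pooled fibroblasts, but its control libraries scattered over 0.179, 0.636, 2.28 and 1.17, and S5P was at 0.0118. In S5P the NDR was at 0 for 32 of 109 members and for 1593 of 13559 high-coverage promoters. Of the members' S5P bins 62.3% were filled, against 81.2%. Whether a value of 0 in S5P is depletion or missing signal was not tested.

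The sialic-acid-binding receptors were less regular. Cd33 had the largest gap of all members in a list, from 0.139 and 0.158 in DCs to 1.77 and 2.32 in the pooled fibroblasts. In the 4 control libraries Cd33 was at 0, 0, 2.73 and 0.0135, and 3 of these were below both DC values. Siglec1 had 0.222 and 0.334 in DCs and 1.31 and 1.22 in the pooled fibroblasts, and its control libraries, from 0.472 to 0.801, lay between both sets. In the BAF-knockdown libraries Siglec1 was more scattered, at 1.07, 0.223, 0.026 and 1.88. Lilrb4a, an inhibitory receptor with 62.2% of its NDR words repeated, ranged from 0 to 6.51 over the single libraries and is uncertain.

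The signalling proteins included the promoter of Tyrobp, the adaptor DAP12 of many activating myeloid receptors. Tyrobp was at 0.0445 and 0.170 in DCs and at 1.45 and 1.46 in the pooled fibroblasts, but at 0, 1.45, 1.06 and 0.0205 in the control libraries and at 0 in both S7P libraries. Lcp1, the leukocyte actin bundler L-plastin, was at 0.00998 and 0.416 in DCs and at 1.78 and 1.16 in the pooled fibroblasts, while only 2 of its 11 other values exceeded 0.9 and 7 were below 0.5. Dock2, an exchange factor for Rac in blood cells, was at 0.358 and 0.219 in DCs, at 1.88 and 1.11 in the pooled fibroblasts and at 1.25, 1.04, 0.502 and 0.293 in the control libraries. For Tyrobp, Lcp1 and Dock2 the unused fibroblast libraries therefore overlapped the DC values.

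**Figure D4:**
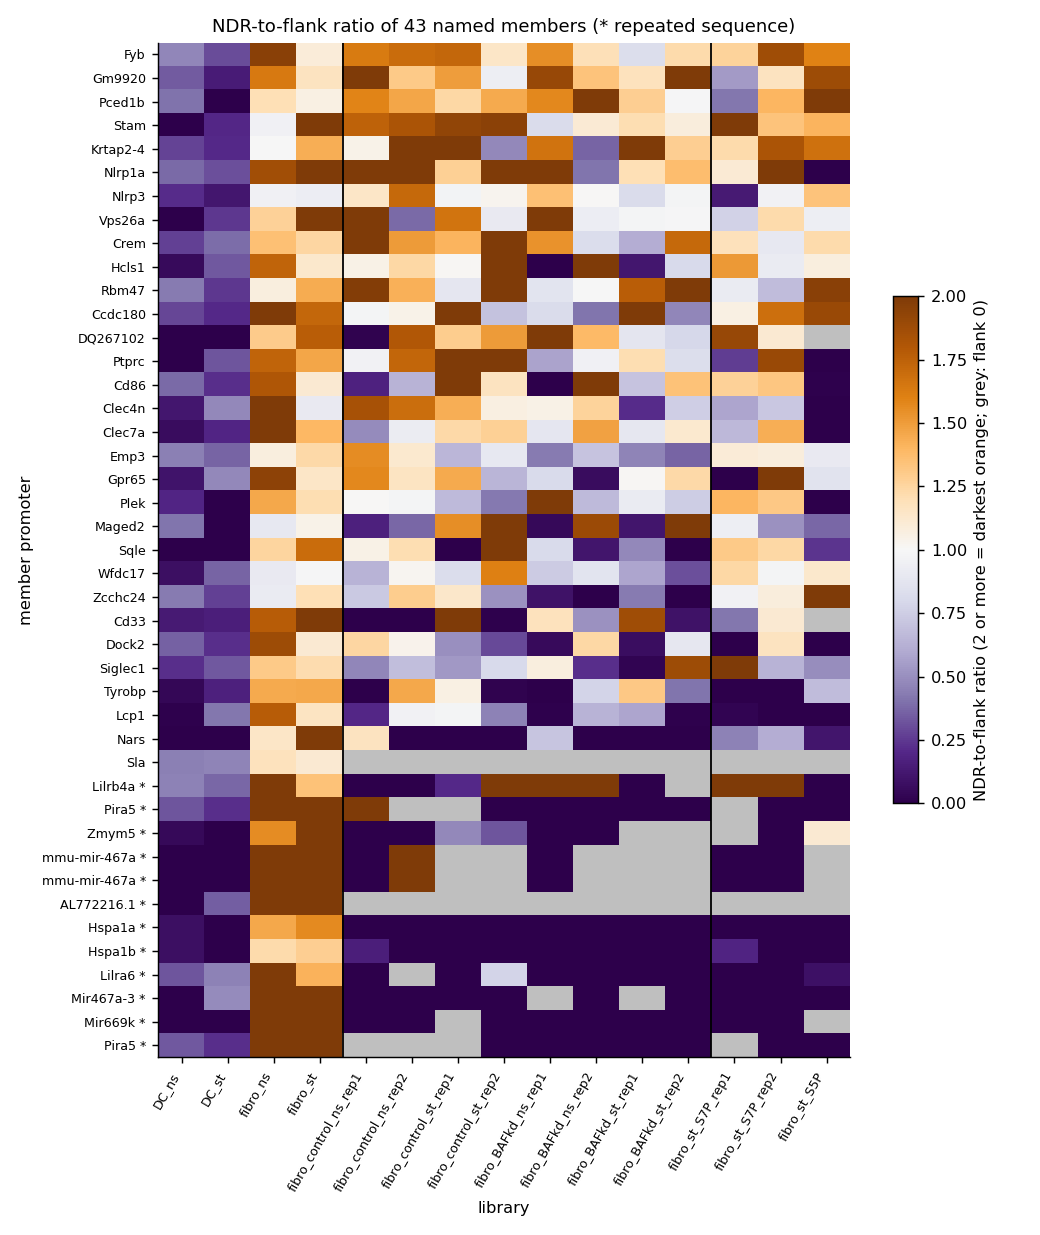
NDR-to-flank ratio of the 43 named members (rows, ordered by the number of the 11 unused libraries above 0.9, repeated DNA last and marked with an asterisk) in the 15 libraries (columns). Colour runs from 0 (dark purple) through 1 (white) to 2 or more (dark orange), grey is a flank of 0, and vertical lines part the pooled, single H3K4me1 and pol-II libraries. Fyb to Stam are orange almost throughout, Lcp1 and Tyrobp are mixed, and the repeated rows are mostly dark purple or grey outside the pooled fibroblast columns.

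Expression was not used in the selection and was taken from the deposited FPKM values, which the authors drew from public RNA-seq of non-stimulated cells of each type and not from the cultures used for ChIP-MNase, 1 value per cell-type, with scales that differ between the cell-types. The markers went with the labelled cell-types. Expression was called in DCs for 16 of 17 DC markers and in fibroblasts for 14 of 15 fibroblast markers, at more than 0.02 times the mean over promoters. Of the fibroblast markers 7 of 15 passed that level in DCs, where the highest was 31.0 FPKM, and the DC markers Tlr4 and Cd74 passed it in fibroblasts. Of 10 markers of T-, B-, mast, neutrophil and erythroid cells, 4 passed in DCs, at no more than 0.43 FPKM, and Cd3e and Cd3g were at 0. These values do not describe the cells of the ChIP-MNase cultures, whose makeup was not tested, and in bulk RNA fewer expressing cells and less RNA per cell cannot be told apart.

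Transcripts above 0 FPKM were listed for 85 members in DCs (78.0%, against 76.2% of high-coverage promoters) and for 81 in fibroblasts (74.3%, against 83%). At more than 0.02 times the mean, 0.0507 FPKM in DCs and 1.6 FPKM in fibroblasts, 52 members were expressed in DCs only. That was 47.7% of members against 21.3% of high-coverage promoters, 19.2% of the 3848 promoters depleted in DCs and 22.4% of the 107 promoters with the opposite pattern of occupancy. A further 22 members were expressed in both cell-types (20.2%, against 40.5% of high-coverage promoters), 28 in neither (25.7%, against 31.1%) and 7 in fibroblasts only (6.42%, against 7.14%). The fibroblast threshold was the higher one, so some members called expressed in DCs only had more FPKM in fibroblasts. Examples were Ctla2b (0.0662 in DCs and 1.43 in fibroblasts) and Stat5b (0.559 and 1.08). Without the members in repeated DNA, 47 of 93 (50.5%) were expressed in DCs only, against 20.7% of high-coverage promoters outside it.

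Of the 10 members with the highest values in DCs, 5 were in a list (Tyrobp, Clec4n, Clec7a, Nlrp3 and Lilrb4a). Wfdc17, a small secreted protein, was at 85.0 FPKM in DCs and 0.0822 in fibroblasts. Tyrobp was at 52.8 and 0, Clec4n at 43.4 and 0.0667, Clec7a at 41.0 and 0.126 and Hcls1, a cortactin-like protein of blood cells, at 14.5 and 0.0853. Nlrp3 was at 12.4 and 0.0488, Plek (pleckstrin) at 8.78 and 0.731 and Gpr65, a proton-sensing receptor, at 8.34 and 0. Lilrb4a was at 57.4 and 0.0179, and Emp3, a membrane protein, was the only 1 of these 10 also expressed in fibroblasts, at 15 and 34.3.

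The NDR of these DC-expressed genes was not uniformly occupied in the unused libraries. Hcls1 was above 0.9 in 8 of 11 and at 1.05, 1.24, 1.01 and 2.23 in the control libraries, against 0.0583 and 0.336 in DCs. In the BAF-knockdown libraries Hcls1 was at 0 and 2.12 without TNF-α and at 0.119 and 0.804 with it, so these overlapped the DC values. Gpr65 and Plek were each above 0.9 in 6 of 11, and Wfdc17 in 5 of 11. The 52 members expressed in DCs only had a median of 0.905 for the member's own median over the single H3K4me1 libraries, compared with 0.674 for the 22 expressed in both, 0.899 for the 28 expressed in neither and 1.02 for the 7 expressed in fibroblasts only.

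**Figure D5:**
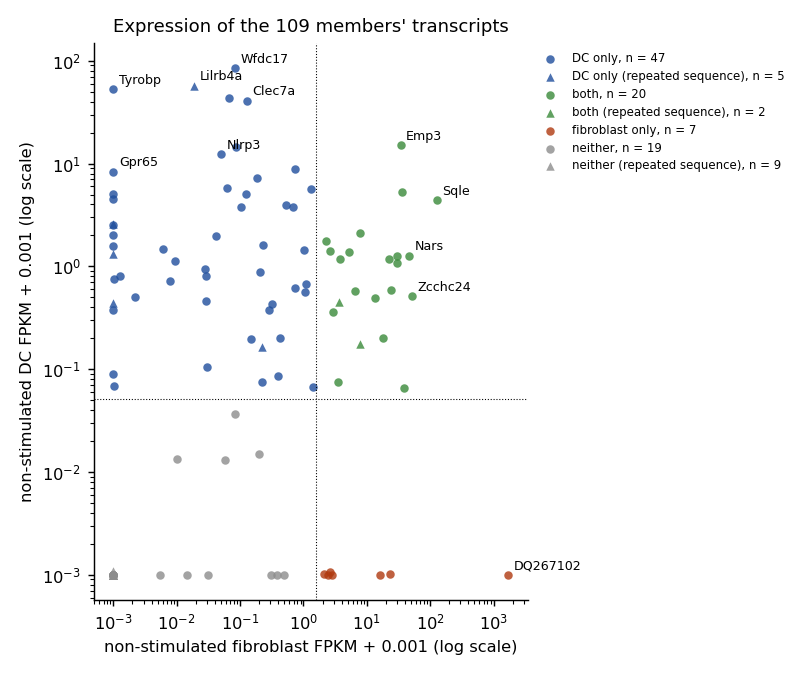
Expression of the 109 members in non-stimulated DCs (vertical) and fibroblasts (horizontal), each as FPKM + 0.001 on a log scale, with dotted lines at 0.02 times the mean of all promoters and triangles for repeated DNA. Points of the 4 classes are coloured, and 52 lie in the upper left field, called expressed in DCs only at these 2 thresholds.

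The 5 members with the highest fibroblast values were expressed there with an NDR that the pooled fibroblast libraries showed as occupied. DQ267102, a small nucleolar RNA, had 1715 FPKM in fibroblasts and 0 in DCs, with ratios of 1.30 and 1.77 in the pooled fibroblast libraries and of 0 in both DC libraries. Whether the annotated start of this small RNA is a start of transcription was not tested. Sqle, an enzyme of sterol synthesis, had 129 FPKM in fibroblasts and 4.39 in DCs, and its control libraries gave 1.05, 1.21, 0 and 3.24. Zcchc24 had 51.2 FPKM in fibroblasts, and Nars, a tRNA synthetase, had 47.1 FPKM. The ratio at Nars was 1.15 and 3.07 in the pooled fibroblasts but 1.17, 0, 0 and 0 in the control libraries, which overlap its DC values of 0 and 0. Maged2 had 38.7 FPKM in fibroblasts and ratios from 0.0503 to 4.56 in the single H3K4me1 libraries.

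Sequence features were not used in the selection, and none of those counted was common to all members. Only 40 of 109 (36.7%) lay in a CpG island, against 56.2% of high-coverage promoters, 87.0% of those depleted in both cell-types and 22.4% of those depleted in neither. A CpG island was called where the 200 bp on either side of the TSS had over 50% GC and over 0.6 of the CpGs that its base content would give. The 69 members outside CpG islands had a median of 0.945 for the member's own median over the single H3K4me1 libraries, against 0.674 for the 40 inside. A divergent TSS within 1000 bp upstream was annotated for 10 members (9.17%, against 16.0%).

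The 150 bases before the TSS of 12 members held the PU.1 letters GAGGAAGT on either strand, which was 11% of members. The share was 1.97% of all high-coverage promoters, 2.29% of the 3848 depleted in DCs, 1.30% of those depleted in both cell-types and 2.80% of those with the opposite pattern. Of the 12 members, 8 were expressed in DCs only and 4 in neither cell-type, and 10 lay outside repeated DNA. Of the matches, 11 are shown with 10 bases on either side, from mm9, read along the strand of the match, with the 8 letters of the match in capitals.
1810006J02Rik, chr1:100027918-100027945, plus strand: attagaagaaGAGGAAGTgacttcaatt
Slamf9, chr1:174405473-174405500, plus strand: aatgtgtacaGAGGAAGTtggagggaga
Scimp, chr11:70626109-70626136, minus strand: ggaccagaaaGAGGAAGTgtggtcaggc
Nlrp1a, chr11:70958272-70958299, minus strand: ccagtgttcaGAGGAAGTacatctgccg
Gm9920, chr15:54945199-54945226, plus strand: tgttcagtttGAGGAAGTagctgttggc
Sla, chr15:66644266-66644293, minus strand: tgtttcagcaGAGGAAGTgtgaggccct
Dennd1c, chr17:57217936-57217963, plus strand: gtggctgagaGAGGAAGTttaacagggt
Gm5547, chr3:105618434-105618461, minus strand: gtttgcaaacGAGGAAGTgggtatagca
Cd72, chr4:43467530-43467557, plus strand: agtcataaaaGAGGAAGTaggtctttgg
Pira5, chr7:3849845-3849872, minus strand: tcacaccattGAGGAAGTcaaagcatgg
Lilra6, chr7:3867236-3867263, minus strand: tcacaccattGAGGAAGTcagagcacgg
Pira5 and Lilra6 lie in 1 receptor cluster, and both are among the members in repeated DNA. Of the 12 matches, 7 were on the strand of the gene and 5 began within 60 bp of the TSS, among them those in Slamf9 (9 bp), Dennd1c (20 bp), Gm5547 (42 bp) and Cd72 (49 bp). Slamf9 is a receptor of the SLAM family and Cd72 is a lectin-like receptor of B- and myeloid cells. Over the 11 unused fibroblast libraries, Gm9920 was above 0.9 in 10, Nlrp1a in 9, and Dennd1c and Gm5547 in 7 each. Cd72 was above 0.9 in 6, and 1810006J02Rik, Scimp and Slamf9 in 5 each. The member whose match is not shown was above 0.9 in 3, and the listed Pira5 and Lilra6 promoters in 0. Sla had no defined ratio in these libraries. A link between the PU.1 letters and occupancy in fibroblasts was not tested.

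The other motifs differed less or were rarer than in the background, with both strands searched throughout. The general ETS letters CCGGAAG, which share GGAAG with the PU.1 letters but cannot coincide with them, were in 4.59% of members against 9.29% of high-coverage promoters, and SP letters GGGCGG in 31.2% against 42.5%. The TATA letters TATAAA were in 11 members (10.1%, against 5.42%), of which 7 lay outside repeated DNA. Among the 1046 promoters depleted in neither cell-type, ETS, SP and TATA letters were in 2.96%, 19.7% and 7.74%. Among the 2378 depleted in both they were in 16.9%, 62.4% and 2.1%. The CCAAT letters were in 25.7% against 26.3%, the E-box letters CACGTG in 1.83% against 5.35% and the AP-1 letters TGANTCA in 4.59% against 3.5%. The letters GAAANNGAA were in 6 members (5.50%, against 3.92%), of which only Cd86 lay outside repeated DNA. The C/EBP letters TTGCGCAA were in none, against 0.118% of high-coverage promoters. A match is a description of the DNA and not a bound site.

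Effects of BAF knockdown and TNF-α on the NDR of the members were compared in the 8 single H3K4me1 libraries, which asks whether the occupied NDR in fibroblasts depended on remodelling or stimulation. The measure was log2 of the NDR over the flank occupancy, with 0.1 added to each, in a limma fit with knockdown and TNF-α as terms, and 92 of the 109 members had a flank above 0 in all 8. The authors chose the MNase digestion separately for each sample, and its amount was not a term in the fit. The fit therefore cannot separate an effect of digestion from one of knockdown or TNF-α. No member passed an adjusted p of 0.05 in limma for BAF knockdown, nor did any of the 13012 promoters tested (0%). At an unadjusted p under 0.05 there were 4 members (4.35%) and 615 promoters (4.73%). The 4 members had lower values in BAF-knockdown cells, by log2 differences of −0.86 ± 0.38 (SE) at Ptprc, −2.22 ± 0.91 at Zcchc24, −0.75 ± 0.33 at Stam and −0.96 ± 0.44 at Clec4n. The median difference was 0.02 over members and 0.02 over all promoters, with a median SE of 0.61 for a member. Its sign rested on single libraries, since leaving out each in turn gave −0.08 to 0.07 over members and −0.06 to 0.06 over all promoters, the lowest member median being without replicate 1 of untreated control cells and the highest without replicate 2 of untreated BAF-knockdown cells.

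For TNF-α, no member passed in limma, and 1 promoter of 13012 did (0.00769%), that of Hilpda, which is no member and is named after its value was seen. At an unadjusted p under 0.05 there was 1 member, Sertad4, with a log2 difference of −0.99 ± 0.40 (SE), against 629 promoters (4.83%). The median difference was 0.06 over members and −0.09 over all promoters. Leaving out each library gave −0.04 to 0.17 over members, the lowest without replicate 2 of TNF-α-treated BAF-knockdown cells and the highest without replicate 1 of TNF-α-treated control cells, and −0.17 to −0.05 over all promoters. The interaction of knockdown and TNF-α passed for none of the 13012 promoters in limma, and at an unadjusted p under 0.05 for 4 of 92 members and 657 promoters. Because 2 libraries a group leave wide errors, these counts do not show that occupancy was unchanged, and the p-values measure only the spread between these libraries.

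The pol-II S7P libraries, which enrich for alleles with elongating polymerase, were compared with the control H3K4me1 libraries of TNF-α-treated fibroblasts, 2 against 2. The antibody, the type of sequencing (paired-end against single-end) and the set of cells (3T3 cells against the control cells of the knockdown) go together here and cannot be told apart. No member of 99 tested passed in limma, nor did any of 13024 promoters (0%). At an unadjusted p under 0.05 there were 9 members (9.09%) and 1003 promoters (7.70%), with 6 members lower in S7P and 3 higher. The lower ones included Lcp1, at a log2 difference of −3.09 ± 0.94 (SE), and Plin1, a lipid-droplet protein, at −3.70 ± 1.04, and the higher ones included Scimp, a scaffold for Toll-like receptor signalling, at 2.37 ± 0.91, and Kcne3 at 2.01 ± 0.55. The median difference was −0.13 over members and 0.16 over all promoters. The first was 0.06 without replicate 1 of S7P, and the second was −0.03 without replicate 2 of the control libraries. Without replicate 1 of S7P, 2 promoters passed and 1 of them was a member, Mir467a-3, at −0.93 ± 0.03, where the ratio was 0 in every library of the fit and the value rests on the added 0.1 and the flank.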

How the data were processed

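ChIP-MNase libraries were aligned to mm9 by the authors with bowtie, with a limit on the number of alignments of a read. Near promoters, the paper kept only fragments with a unique place among the promoter regions, even if they also aligned elsewhere. Duplicates were reduced, and fragments were counted in bins of 10 bp and expressed relative to the surrounding 1 kb. The deposited occupancy signal holds 200 bins from −1000 to 1000 bp of 25881 TSSs and no read counts, so depth and intervals could not be given, and an empty bin was read as 0. Of the bins of high-coverage promoters 82.0% to 90.2% were above 0 in the pooled libraries and 63.5% to 81.2% in the others. The deposited coverage score, also a signal, is the authors' mean number of fragments near the TSS in non-stimulated cells, and the deposited FPKM values are from published RNA-seq. The annotation's 2 columns of stimulation effects are the authors' own comparisons and were not used. Genes were named by RefSeq accession, or for 10 members by a GENCODE start on the same strand within 50 bp, and sequences were read from mm9. The sequence of 1 promoter is not reported here.

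The members and gene lists were chosen with earlier results of these data known. Named members were the 12 with the largest gap between cell-types, all members of a list, the 10 with the highest DC and 5 with the highest fibroblast expression, the 10 above 0.9 and the 5 below 0.5 in most of the 11 unused libraries, and those at the thresholds. Members named for a PU.1 match, repeated DNA or an unadjusted p, and the windows around PU.1 matches, were chosen after their values were seen. The ratio was left undefined where the flank was 0. Fits used limma 3.58.1 in R 4.3.3 on log2((NDR + 0.1)/(flank + 0.1)) of high-coverage promoters with a flank above 0 in every library, with a trended prior, Benjamini-Hochberg adjustment over all promoters and a threshold of 0.05. On simulated data the fits missed all but large changes, and missed those too in the S7P comparison, so an absence of calls carries little information. Sequence was read with pysam 0.24.0, and repeated DNA was found by counting exact 32-base words on both strands of mm9, a step added after values were seen. Replicate numbers were not taken as pairs. Alternatives varied the added constant, the filter, the scaling, both windows, the thresholds, the libraries used and the expression threshold.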

Additional observations from a re-analysis of the deposited data

How the results depend on the processing

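The number of members depended on the selection. It was 53 with a coverage score above 200, 59 with thresholds of 0.4 and 1, 239 with thresholds of 0.6 and 0.8, 761 with only the 2 non-stimulated pooled libraries and 846 with only the 2 stimulated ones. It stayed within 1.5 times of 109 in the 3 other settings, the added removal of repeated DNA leaving 93. The median number of the 11 unused libraries above 0.9 moved by no more than 1 in 8 settings. The share expressed in DCs was 67.9% at 0.02 times the mean. That in fibroblasts was 26.6% at that threshold, 64.2% with a coverage score above 200 and 82.8% without members in repeated DNA. The background at 0.02 times the mean is given above by expression class.

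The BAF knockdown comparison gave 1 promoter in the TNF-α-treated libraries alone and 1 with only replicate number 1, a setting added after seeing the data, and 0 to 1 when each library was left out, the 1 being H2bc13 without replicate 2 of TNF-α-treated control cells. The TNF-α call of Hilpda rested on the setting. It was lost, leaving 0 promoters, with 0.5 added, with a flank of at least 0.4, with no filter, with a longer NDR window, with flanks on both sides, without the trend, and in control, BAF-knockdown, replicate 1 or replicate 2 libraries alone. Leaving out each library gave 0 to 1, and only the fit without replicate 2 of TNF-α-treated BAF-knockdown cells kept the call. The S7P comparison gave 0 to 2 when each library was left out. The cause was not tested. The deviations of same-numbered libraries had correlations from −0.01 to 0.02, so the numbers were not taken as pairs, and with the replicate block the counts were 0 for BAF knockdown, 1 for TNF-α and 2 for S7P, neither of the 2 a member. The files give no depth, and with 2 libraries a group the median SE of a member's log2 difference was 0.61, or 0.82 for S7P.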
